A study of Mus musculus with 4 samples.

Results

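Genomic imprinting leaves 1 parental copy of a gene expressed and the other silent. The choice is set by DNA methylation laid down in the egg or sperm at differentially methylated regions, and is kept after fertilization by factors such as ZFP57 and TRIM28. Many imprinted genes lie in clusters in which a long noncoding RNA from 1 allele accompanies silencing of protein-coding genes on that allele, and many act in growth, in feeding and in the brain. This report describes 48 such genes and host transcripts of 21 clusters in mouse brain, chosen by name, of which 17 are known for maternal expression, 24 for paternal expression and 7 for an allele that depends on isoform or tissue or is disputed.

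The arrays held RNA of C57BL/6J male whole brains, collected on postnatal day 60 according to the labels, with the methods giving a later day. Ethanol pups had received 2 subcutaneous doses of 2.5 g/kg ethanol in saline, with 2 hours between them, on each of postnatal days 4 and 7, and weight-matched control pups of the same litters received only saline. Equal amounts of RNA from 3 males, no 2 of them littermates, were pooled for an array. The 2 ethanol pools are called ethanol 2 and ethanol 4, and the 2 control pools are called control 1 and control 3, after their titles. For ethanol 4 and control 1 the labels disagree with themselves, since their treatment entry names the other group than their title and source name do. The pools share no matched number, so pairs of littermate pools cannot be read from the labels, and p-values measure only the spread between these 4 pools.

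Of the 48 genes, 41 have a probe set that names them alone, 1 for each gene, among 35556 probe sets on the arrays. Gnas, Snrpn and Ube3a are named only together with other genes, and H19, Kcnq1ot1, Zrsr1 and Peg13 are named by no probe set and were not analysed here. All values are log2 signals, and differences are ethanol minus control on the log2 scale. A gene was past the limits when it differed by at least 1.2-fold, a log2 of 0.263, with an unadjusted limma p under 0.05.

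The array medians were 6.33 and 6.38 on ethanol 2 and ethanol 4, against 6.61 and 6.51 on control 1 and control 3. Over all probe sets the median difference was -0.146, and a further quantile normalization of the arrays brought it to -0.0042. Results are therefore given as deposited and after this normalization. The 8 measured markers of neurons gave a summed log2 signal of 15.23 and 15.26 on the ethanol arrays and of 15.34 and 15.27 on the control arrays. Their median difference was -0.11 as deposited and -0.09 after normalization. In each form 5 of 8 had both ethanol pools below both control pools, against 52.7% and 24.9% of all probe sets. The 8 measured pituitary markers summed to 8.79 on ethanol 2 and 12.86 on ethanol 4, against 12.76 and 12.72 on the control arrays, so ethanol 2 stands apart in pituitary transcripts. The lowest of these pituitary markers there was Prl at 5.05. The 9 measured hypothalamic markers summed to 9.93 and 10.03 in the ethanol pools and 10.23 and 10.22 in the control pools. Their median difference was -0.24 as deposited and -0.03 after normalization, where 2 of 9 had both ethanol pools below both control pools. The 5 measured oligodendrocyte markers summed to 13.58 and 13.59 in the ethanol pools and 13.84 and 13.73 in the control pools, with both ethanol pools below both control pools in 4 of 5 in each form and a median difference of -0.19 as deposited and -0.16 after normalization. The medians of astrocyte and microglial markers were 0.0043 and -0.06 as deposited, and 0.07 and 0.07 after normalization. The part of these cell types in the results was not tested, and fewer cells of a type cannot be told apart from less RNA per cell.

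In the ethanol brains 8 of the 41 imprinted genes were lower past the limits as deposited and none was higher. The 8 were Airn, Zdbf2, Begain, Blcap, Trappc9, Meg3, Phlda2 and Ppp1r9a. This is 19.5% of the genes, near the 17.9% of all probe sets that were lower past the same limits, while 2.23% of all probe sets were higher. Among the 21789 probe sets that name a single gene, 16.0% were lower and 0.546% higher. After quantile normalization Airn, Zdbf2, Begain, Blcap and Meg3 were still lower past the limits, which is 12.2% of the genes against 5.87% of all probe sets. Atp10a was then higher, 1 of 41 genes against 5.71% of all probe sets. Among probe sets naming a single gene 3.43% were then lower and 3.65% higher, and 5.86% of all probe sets were lower in both forms. Adjusted over all probe sets, no imprinted gene reached a limma p of 0.05. The smallest adjusted p was 0.171 as deposited and 0.304 after normalization, and 0.00281% and 0.00562% of all probe sets passed in these forms. At an unadjusted p of 0.05 there were 8 of 41, or 19.5%, against 22.2% of all probe sets. The per-gene test of the methods, which name analysis of variance and a Chi-square test, was approximated by an equal-variance t-test on the log2 values. This t-test gave 7 genes at an unadjusted p of 0.05. It gave 2 genes past both limits, Begain and Ppp1r9a, where 8.11% of all probe sets were lower. None was past an adjusted p of 0.05. Grouped by the treatment entry, none of the 41 genes was past the limits in either direction, against 0.686% of all probe sets lower and 0.917% higher. The differences of Airn, Begain, Blcap, Meg3, Phlda2 and Ppp1r9a were then above 0, while those of Zdbf2 and Trappc9 stayed below it. With each array centred on its median none of the 8 kept its call, and 3.91% of all probe sets were then lower. Pups of a litter were matched between groups, and with control 1 paired with ethanol 4 as a block 4 of the 8 kept the call, the calls of Airn, Meg3, Phlda2 and Ppp1r9a being lost. With control 1 paired with ethanol 2 that of Ppp1r9a was lost. Without ethanol 2 the count of lower genes was 3, Airn, Zdbf2 and Begain, against 9.84% of all probe sets. Without control 1 it was 2, Zdbf2 and Begain, against 9.80%. Without ethanol 4 it was 5, against 12.8%, and Dlk1 and Rian among these were not among the 8.

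**Figure D1:**
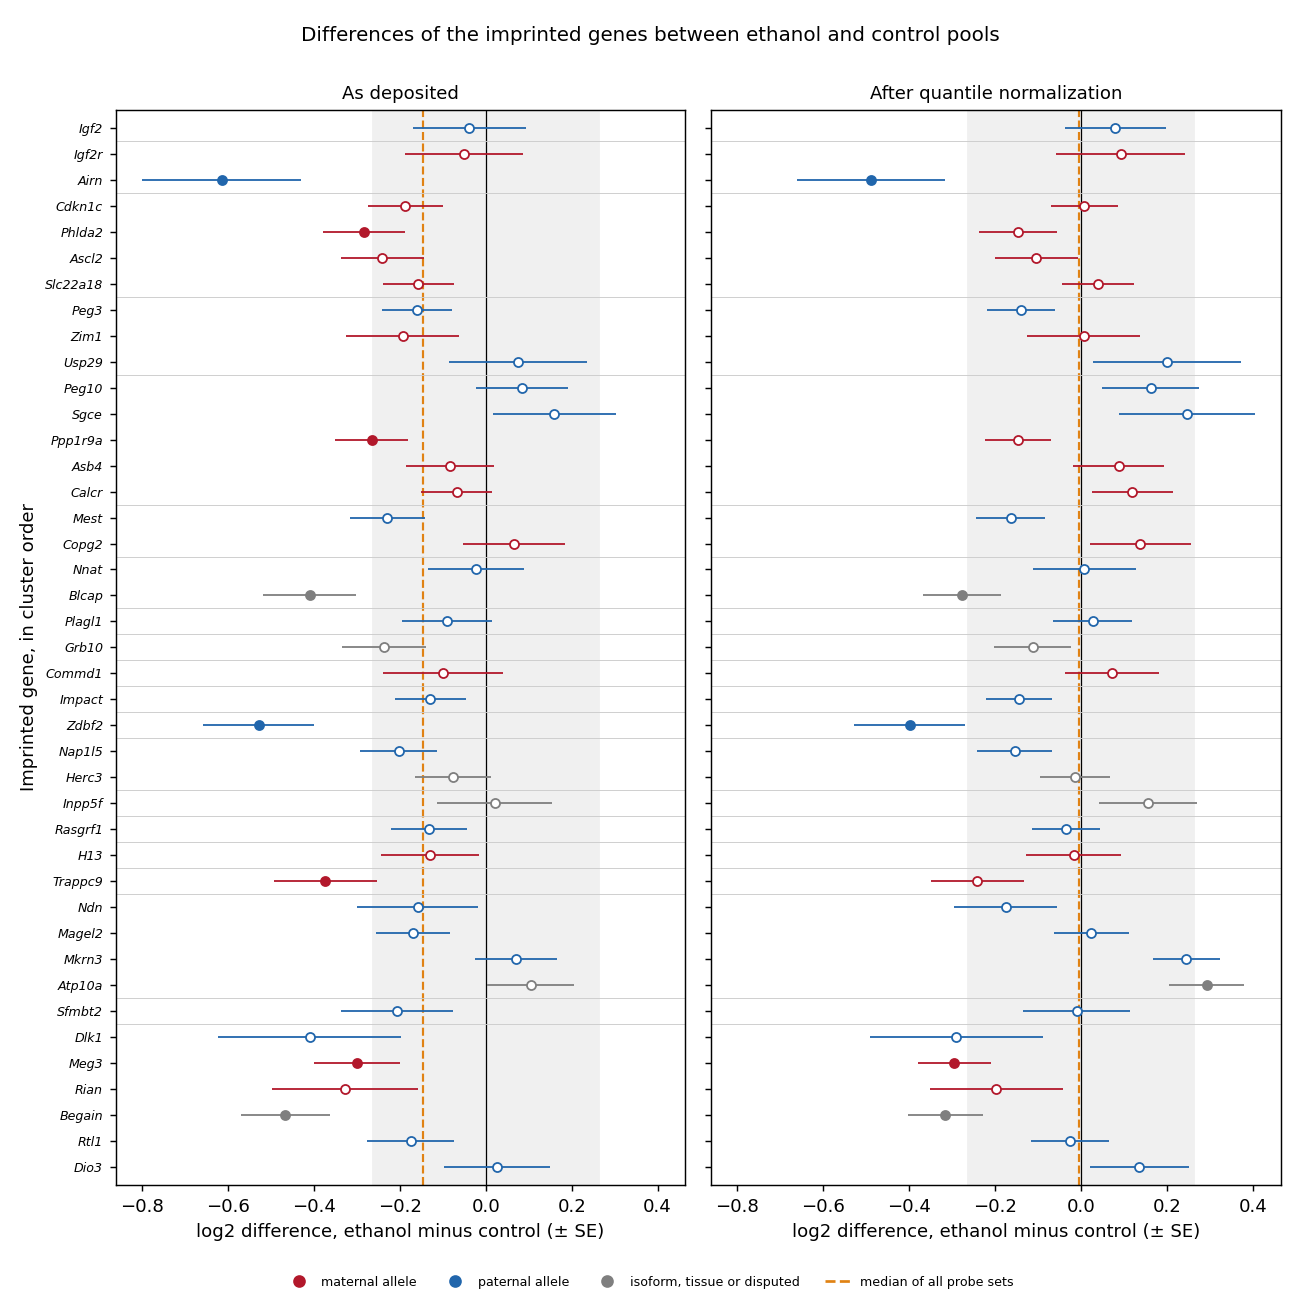
Log2 differences (ethanol minus control, ± SE from limma, 2 pools per group) of the 41 imprinted genes in cluster order, as deposited and after quantile normalization. Filled points are past the limits, the grey band spans differences under 1.2-fold, and the dashed line is the median of all probe sets. Airn and Zdbf2 lie farthest to the left in both panels, at -0.61 and -0.53 as deposited.

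The promoters of the 6 genes past the limits after quantile normalization are shown because promoters of imprinted genes are where parental methylation is often read, and so that the CpGs and ZFP57 hexamers at their starts can be seen. The sequences are RefSeq windows of 300 bases on GRCm38.p6, from 250 bases before to 50 after an annotated start, in lower case with every CpG dinucleotide in capitals. Where a gene had several windows, the one with most ZFP57 hexamers and then most CpGs was taken. The windows are chr17:12741061-12741360 on the plus strand for Airn, chr1:63200108-63200407 on the plus strand for Zdbf2, chr12:109068168-109068467 on the minus strand for Begain, chr2:157566312-157566611 on the minus strand for Blcap, chr12:109540746-109541045 on the plus strand for Meg3 and chr7:58657952-58658251 on the plus strand for Atp10a.
Airn: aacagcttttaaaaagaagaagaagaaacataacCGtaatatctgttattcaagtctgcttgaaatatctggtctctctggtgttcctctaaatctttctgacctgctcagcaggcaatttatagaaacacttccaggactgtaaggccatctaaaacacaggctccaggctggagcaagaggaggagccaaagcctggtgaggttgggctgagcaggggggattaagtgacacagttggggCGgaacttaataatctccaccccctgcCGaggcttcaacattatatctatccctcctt
Zdbf2: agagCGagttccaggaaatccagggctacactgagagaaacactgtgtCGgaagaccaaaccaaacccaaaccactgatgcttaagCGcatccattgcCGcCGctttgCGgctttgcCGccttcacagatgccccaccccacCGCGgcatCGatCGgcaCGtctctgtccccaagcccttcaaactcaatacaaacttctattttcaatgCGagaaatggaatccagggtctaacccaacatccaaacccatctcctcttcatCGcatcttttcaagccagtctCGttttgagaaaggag
Begain: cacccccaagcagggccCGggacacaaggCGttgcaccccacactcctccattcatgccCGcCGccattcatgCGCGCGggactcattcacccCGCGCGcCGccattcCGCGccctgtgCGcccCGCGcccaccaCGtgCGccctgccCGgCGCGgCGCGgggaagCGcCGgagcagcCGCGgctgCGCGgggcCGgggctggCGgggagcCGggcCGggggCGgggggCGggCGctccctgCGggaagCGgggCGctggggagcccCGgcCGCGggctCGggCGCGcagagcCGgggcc
Blcap: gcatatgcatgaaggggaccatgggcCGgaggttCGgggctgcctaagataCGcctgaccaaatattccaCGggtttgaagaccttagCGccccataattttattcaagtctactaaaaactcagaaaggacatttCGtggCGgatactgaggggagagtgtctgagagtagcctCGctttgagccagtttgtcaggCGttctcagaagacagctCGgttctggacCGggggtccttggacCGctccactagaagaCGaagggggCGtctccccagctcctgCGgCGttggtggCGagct
Meg3: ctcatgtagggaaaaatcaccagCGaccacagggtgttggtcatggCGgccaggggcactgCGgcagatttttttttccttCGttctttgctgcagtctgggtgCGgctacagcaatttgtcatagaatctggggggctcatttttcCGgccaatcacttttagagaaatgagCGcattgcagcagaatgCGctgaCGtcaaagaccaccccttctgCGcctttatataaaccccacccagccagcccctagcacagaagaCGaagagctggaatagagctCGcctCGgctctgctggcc
Atp10a: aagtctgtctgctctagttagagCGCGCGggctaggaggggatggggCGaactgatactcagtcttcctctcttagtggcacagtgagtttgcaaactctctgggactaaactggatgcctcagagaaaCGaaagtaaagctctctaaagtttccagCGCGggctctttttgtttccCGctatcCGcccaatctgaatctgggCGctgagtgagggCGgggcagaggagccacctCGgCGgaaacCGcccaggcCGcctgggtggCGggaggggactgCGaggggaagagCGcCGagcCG
The Airn window holds 3 CpGs, and the Begain window holds 46. The windows shown for Zdbf2, Blcap, Meg3 and Atp10a hold 15, 17, 13 and 20. These counts depend on the window, since the other Zdbf2 window holds 38 CpGs and the other Meg3 window holds 1, neither with a hexamer, and the other 4 Begain windows hold 34 to 42. The hexamer TGCCGC, which ZFP57 binds when it is methylated, was searched on both strands. It is present 3 times in the Zdbf2 window and once in that of Meg3, and was not found in the other 4. The other Zdbf2 window lies at chr1:63273019-63273318, and which annotated start is used in these brains was not examined. Of the 41 measured genes 35 have a window in the RefSeq table. The hexamer is in a window of 12 of these 35 genes, or 34.3%, against 13.1% of the 27025 genes of the table. A gene with more windows has more chances of a match. Counted by window, it is in 25.0% of the 52 windows of these genes and in 11.6% of all 32851. The windows of the imprinted genes are also richer in CpG, with a median of 17 against 7 over all windows, and the hexamer itself contains a CpG. These matches describe letters and not bound sites.

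At the Igf2r locus, the paternally expressed antisense RNA Airn had the largest difference of the 41 genes over the 4 arrays in both forms, and its partner Igf2r had a small one. Between ethanol 2 and control 3, the arrays whose labels do not conflict, Airn was at -0.28 and Igf2r at -0.29 as deposited. Zdbf2 at -0.72, Dlk1 at -0.63, Ascl2 at -0.35 and Blcap at -0.29 were larger than Airn there. The differences of Trappc9, Rian, Begain and H13 were larger too, so Airn did not lead on that pair. Airn silences Igf2r and its neighbours on the paternal allele in many tissues, while neurons are known to express Igf2r from both alleles. Airn had log2 signals of 8.46 and 8.23 on ethanol 2 and ethanol 4, against 9.18 and 8.73 on control 1 and control 3. Both ethanol pools lay below both control pools, with control 1 far above control 3. The difference was -0.61 (standard error 0.19, limma, adjusted p = 0.189), which is 65.3% of the control level, and -0.49 after quantile normalization. It was -0.39 without control 1 and no longer past the limits, and the call was also lost without ethanol 4. After normalization it was kept only with control 3 left out. The block that pairs control 1 with ethanol 4 ended the Airn call too (limma, unadjusted p = 0.0509), and grouped by the treatment entry the difference was 0.34. Igf2r, which clears IGF2 and sorts lysosomal enzymes, had 7.89 and 8.12 in ethanol pools and 7.93 and 8.18 in control pools. Its difference was -0.05 as deposited and 0.09 after normalization, and the groups overlapped in both forms. The differences of Airn and Igf2r were not tested against each other.

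Igf2 is a growth factor that adult brain makes mainly in choroid plexus and meninges, and it did not separate the groups. It is counted here among the paternally expressed genes, but the arrays do not show which allele was expressed in these tissues. Its signals were 8.88 and 9.18 on ethanol 2 and ethanol 4, against 9.12 and 9.02 on control 1 and control 3. The difference was -0.04 (standard error 0.13, adjusted p = 0.873) and 0.08 after normalization. The 9 measured choroid plexus markers summed to 13.07 and 13.08 in the ethanol pools and 13.24 and 13.24 in the control pools, and the 10 meningeal and fibroblast markers to 12.45 and 12.53 against 12.59 and 12.39. The median difference of the choroid plexus markers was -0.22 as deposited and -0.06 after normalization. That of the meningeal and fibroblast markers was -0.09 and 0.04.

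Zdbf2, a paternally expressed zinc finger gene that in mouse is known for its part in the newborn's feeding and growth, was lower in both ethanol pools. It had 8.26 and 8.55 on ethanol 2 and ethanol 4, against 8.88 and 8.98 on control 1 and control 3. The lowest signal was on ethanol 2, and the groups did not overlap in either form. The difference was -0.53 (standard error 0.13, adjusted p = 0.173), or 69.3% of the control level, and -0.40 after normalization. As deposited it stayed past the limits with each array left out, with differences from -0.67 to -0.39, the smallest of which was without ethanol 2. After normalization it was past them in 2 of the 4 such fits and lost the call without ethanol 2 or control 3. Calls of both normalized and deposited values were lost under the grouping by treatment entry, where the difference was -0.19 as deposited.

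In the Nnat-Blcap pair, the host gene was lower past the limits and the gene nested in its intron was not past them. Blcap, whose allele use in brain depends on the transcript, had 8.27 and 8.25 on ethanol 2 and ethanol 4, against 8.78 and 8.56 on control 1 and control 3. The ethanol pools were nearly equal, and both lay below the control pools. The difference was -0.41 (standard error 0.11, adjusted p = 0.175) and -0.28 after normalization, and it lost the call without control 1, ethanol 2 or ethanol 4 in both forms. Nnat, a paternally expressed proteolipid of the endoplasmic reticulum that is abundant in developing neurons, had 11.34 and 11.57 in ethanol pools and 11.47 and 11.49 in control pools. Whether Blcap and Nnat differ from each other was not tested, and Nnat ran from -0.14 to 0.09 as deposited with 1 array left out. One ethanol pool was below and the other above both control pools, and the difference was -0.022 as deposited and 0.0078 after normalization.

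**Figure D2:**
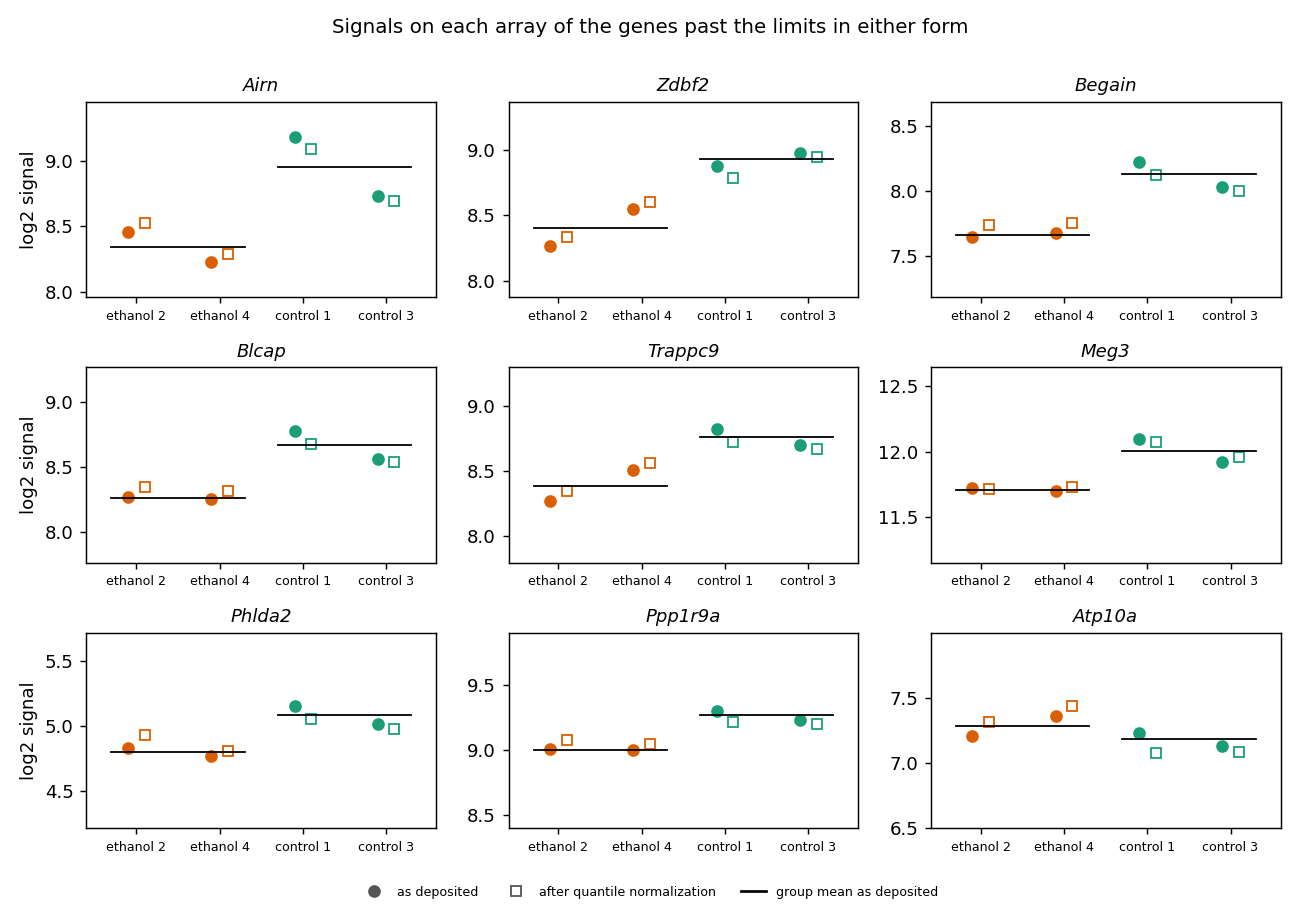
Log2 signals on each of the 4 arrays of the 9 genes past the limits in either form, ethanol pools on the left and control pools on the right. Circles are deposited values, open squares are values after quantile normalization and lines are group means as deposited. All panels span the same range of 1.5 log2 units around each gene, and the ethanol pools lie below the control pools in every panel except Atp10a.

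Trappc9, a maternally expressed subunit of a vesicle-tethering complex that hosts the paternal RNA Peg13 in an intron, had 8.27 and 8.50 in ethanol pools and 8.82 and 8.70 in control pools. The groups did not overlap, and ethanol 2 was again the lowest array. Trappc9 differed by -0.37 (standard error 0.12) with an adjusted p of 0.197. The normalized difference was -0.24 and not past the limits, and without ethanol 2 it was -0.26 as deposited, also short of them. Without control 1 the call was lost as well.

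In the Dlk1-Dio3 cluster 2 of the 6 measured transcripts, Begain and Meg3, were lower past the limits in both forms, as 5.86% of all probe sets were. As deposited 5 of the 6 had both ethanol pools below both control pools, as 52.7% of all probe sets did. After normalization 2 of the 6 did, against 24.9%. Begain, a postsynaptic protein gene at the edge of the cluster, had 7.65 and 7.68 in ethanol pools and 8.22 and 8.03 in control pools as deposited. The difference was -0.47 (standard error 0.10, adjusted p = 0.171), and it kept the call with any single array left out as deposited, where it ran from -0.56 to -0.37. After normalization both ethanol pools still lay below both control pools. The normalized difference was -0.32 (standard error 0.09, adjusted p = 0.304), and it stayed past the limits only with control 3 left out. Meg3, the maternally expressed long noncoding RNA, had 11.71 and 11.73 in ethanol pools and 12.07 and 11.96 in control pools after normalization. Its difference was -0.30 as deposited and -0.29 after normalization, and lost the call in both without control 1, ethanol 2 or ethanol 4.

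The other 4 transcripts of this cluster were not past the limits in either form. Dlk1, the paternally expressed relative of Notch ligands and also a pituitary transcript, had normalized signals of 8.57 on ethanol 2 and 9.12 on ethanol 4, against 9.18 and 9.09 on control 1 and control 3. Only ethanol 2 was low, and the groups overlapped. The difference was -0.29 after normalization, and -0.012 without ethanol 2. As deposited it was -0.41, and -0.12 without ethanol 2. In that form the groups did not overlap, with 8.49 and 9.07 against 9.26 and 9.12. Rian, the maternal snoRNA host transcript, had 8.04 and 8.40 in ethanol pools and 8.51 and 8.33 in control pools after normalization, with a difference of -0.20 that was -0.017 without ethanol 2. The deposited difference of Rian was -0.33, and -0.14 without ethanol 2. A second probe set, which names Rian together with AF357355, differed by 0.02 as deposited and 0.12 after normalization. Rtl1, a paternally expressed gene derived from a retrotransposon, was at -0.17 as deposited and -0.03 after normalization. Dio3, which inactivates thyroid hormone, had 4.56 and 4.81 in ethanol pools and 4.59 and 4.72 in control pools, and was at 0.03 as deposited and 0.14 after normalization. The 3 measured long noncoding RNAs, Airn, Meg3 and Rian, had differences from -0.61 to -0.30 as deposited and from -0.49 to -0.20 after normalization, a grouping made after their values were seen.

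The genes silenced on the paternal allele alongside Kcnq1ot1 had low signals, from a mean log2 of 4.95 to 6.09, and all 4 had both ethanol pools below both control pools as deposited, as 52.7% of all probe sets did. Phlda2, which limits placental growth, had 4.83 and 4.77 in ethanol pools and 5.16 and 5.02 in control pools. Its difference of -0.28 (standard error 0.10, adjusted p = 0.204) was past the limits, and that of -0.15 after normalization was not. Cdkn1c, an inhibitor of cyclin-dependent kinases, had 5.89 and 5.92 against 6.14 and 6.05, and differed by -0.19 as deposited and 0.0076 after normalization. Ascl2, a transcription factor of the trophoblast, and the transporter-like Slc22a18 were at -0.24 and -0.16 as deposited and at -0.10 and 0.04 after normalization. Slc22a18 had 5.99 and 6.04 against 6.17 and 6.17. All 4 lay below the median of every array, and after normalization the groups stayed apart in Phlda2 alone, against 24.9% of all probe sets.

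In the Peg10-Sgce cluster 1 of 5 genes, or 20.0%, was lower past the limits as deposited, near the 17.9% of all probe sets, and none was after normalization. Ppp1r9a, which encodes the spine protein neurabin and is known for maternal expression in placenta, had 9.01 and 9.00 in ethanol pools and 9.30 and 9.23 in control pools. The difference was -0.27 (standard error 0.08, adjusted p = 0.196), just past the limits, and -0.15 after normalization, which was short of them. It lost the call with any 1 array left out. Sgce, the paternally expressed epsilon-sarcoglycan that is mutated in a human movement disorder, had 10.08 and 10.08 in ethanol pools, and 9.75 on control 1 and 10.10 on control 3. The signal of control 1 was the low one, and the difference was 0.16 as deposited, 0.25 after normalization and -0.019 as deposited without control 1. Without control 3 it was 0.34 and past the limits. Peg10, derived from a retrotransposon, was at 0.08, the ubiquitin ligase adaptor Asb4 at -0.08 and the calcitonin receptor Calcr at -0.07, and after normalization these 3 were at 0.16, 0.09 and 0.12.

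In the Peg3 cluster, where the windows of Peg3 and Usp29 overlap on opposite strands, the 2 paternally expressed genes had differences of opposite sign. Peg3, a zinc finger gene known for its part in maternal behaviour in mouse, had 11.36 and 11.37 in ethanol pools and 11.52 and 11.53 in control pools. The replicates were nearly equal and the groups did not overlap, but the difference of -0.16 (standard error 0.08, adjusted p = 0.305) was under 1.2-fold, as was that of -0.14 after normalization. Usp29, a ubiquitin protease gene, had 8.76 and 9.00 against 8.64 and 8.98, at 0.07 as deposited and 0.20 after normalization. Zim1, a maternally expressed zinc finger gene, had 6.46 and 6.19 against 6.60 and 6.44, at -0.19 and 0.0063. The sign of the Usp29 difference was not stable as deposited. It was -0.095 without control 1 and -0.048 without ethanol 4, but 0.20 without ethanol 2 and 0.24 without control 3. By the treatment entry it was -0.29, and between ethanol 2 and control 3 it was -0.22. Whether the differences of Peg3 and Usp29 differ was not tested.

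Of the Snrpn-Ube3a region, Atp10a was the gene past the limits, and only after normalization. Atp10a, a phospholipid flippase gene whose imprinting in mouse is disputed, had deposited signals of 7.21 and 7.36 in ethanol pools and 7.23 and 7.14 in control pools, which overlap. After normalization it had 7.31 and 7.44 against 7.08 and 7.09, a difference of 0.29 (standard error 0.09, adjusted p = 0.321) against 0.10 as deposited. It kept the call without ethanol 2 and lost it without any other array. Mkrn3, a brake on puberty, was just short of 1.2-fold after normalization at 0.25, with 5.67 and 5.70 against 5.46 and 5.42, and was at 0.07 as deposited.

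Ndn, a paternally expressed gene of the MAGE family that is strong in neurons, had 12.21 and 11.89 in ethanol pools and 12.28 and 12.14 in control pools, and differed by -0.16 as deposited and -0.18 after normalization. Its relative Magel2 had 5.85 and 5.92 against 6.04 and 6.07, at -0.17 and 0.02. Snurf and Snrpn, from the transcript that starts at the imprinting centre, share a probe set. The shared signal for Snurf and Snrpn had 11.89 and 12.11 against 12.03 and 12.16, and differed by -0.09 as deposited and -0.10 after normalization. The probe set that names Ube3a, the ubiquitin ligase gene expressed from the maternal allele in neurons, together with C230091D08Rik, Srebf2 and P3h3 had 9.15 and 9.09 against 9.11 and 8.91. It differed by 0.11 and 0.23, of which the part of Ube3a cannot be told.

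Mest and Copg2 are neighbours on chromosome 6 with opposite expressed alleles. Mest, the paternally expressed hydrolase-like gene, had 10.20 and 10.18 in ethanol pools and 10.47 and 10.37 in control pools, a difference of -0.23 (standard error 0.09, adjusted p = 0.228), and one of -0.16 after normalization. Its groups did not overlap in either form. Copg2, a coatomer subunit, had 10.44 and 10.18 against 10.25 and 10.25, at 0.07 and 0.14, with the ethanol pools on either side of the control pools as deposited. Commd1, the copper and endosome trafficking gene that hosts Zrsr1, had 5.32 and 5.51 against 5.66 and 5.37, at -0.10 and 0.07.

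The remaining 9 genes were not past the limits in either form. Nap1l5, a nucleosome assembly protein relative nested in the ubiquitin ligase gene Herc3, had 10.77 and 10.88 in ethanol pools and 11.04 and 11.02 in control pools, at -0.20 as deposited and -0.15 after normalization. Herc3 itself had 10.58 and 10.50 against 10.65 and 10.58, at -0.08 and -0.01. Impact, a regulator of translation under stress that is abundant in neurons, had 11.78 and 11.76 against 11.91 and 11.88, and its difference of -0.13 was -0.14 after normalization. Nap1l5, Impact and the insulin receptor adaptor Grb10, which had 8.67 and 8.81 against 9.02 and 8.93 and was at -0.24 and -0.11, had ethanol pools below control pools in both forms. Rasgrf1, a Ras exchange factor of neurons, did so too, with 9.90 and 9.91 against 10.08 and 9.99, at -0.13 and -0.03. Over all probe sets both ethanol pools lay below both control pools in 52.7% as deposited and 24.9% after normalization. In Herc3 they did so as deposited, and the groups overlapped after normalization. The groups overlapped in both forms in Plagl1, H13, Sfmbt2 and Inpp5f. The zinc finger gene Plagl1 had 9.28 and 9.40 against 9.51 and 9.35, at -0.09 and 0.03. The signal peptide peptidase H13 had 9.38 and 9.60 against 9.58 and 9.66, at -0.13 and -0.017. The polycomb gene Sfmbt2 had 6.09 and 5.88 against 6.31 and 6.08, at -0.21 and -0.0099. The phosphatase Inpp5f had 8.22 and 8.17 against 8.33 and 8.01, at 0.02 and 0.16. The probe set of Gnas and Gnasas1, from the locus of the stimulatory G protein, differed by -0.11 and -0.10.

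Split by expressed allele, the maternally expressed genes had 4 of 15 lower past the limits as deposited, Meg3, Phlda2, Ppp1r9a and Trappc9, and the paternally expressed genes 2 of 20, Airn and Zdbf2. These are 26.7% and 10.0% of the genes, against 17.9% of all probe sets. Ppp1r9a, known for maternal expression in placenta, and Igf2r, which neurons express from both alleles, are counted here as maternal. Whether the known allele of each gene holds in whole brain was not examined. The median difference was -0.19 for the maternal genes and -0.15 for the paternal genes, with -0.15 over all probe sets. After quantile normalization 1 maternal and 2 paternal genes were lower past the limits, where 5.87% of all probe sets were, and the medians were 0.0063 and -0.018, against -0.0042 over all probe sets. Of the 6 genes with an allele that depends on isoform or tissue or is disputed, Begain and Blcap were lower past the limits in both forms. Of all probe sets 5.86% were so. Atp10a was higher after normalization, as 5.71% of all probe sets were. The order of the maternal and paternal medians was thus not the same in the 2 forms, and the difference between the alleles was not tested.

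**Figure D3:**
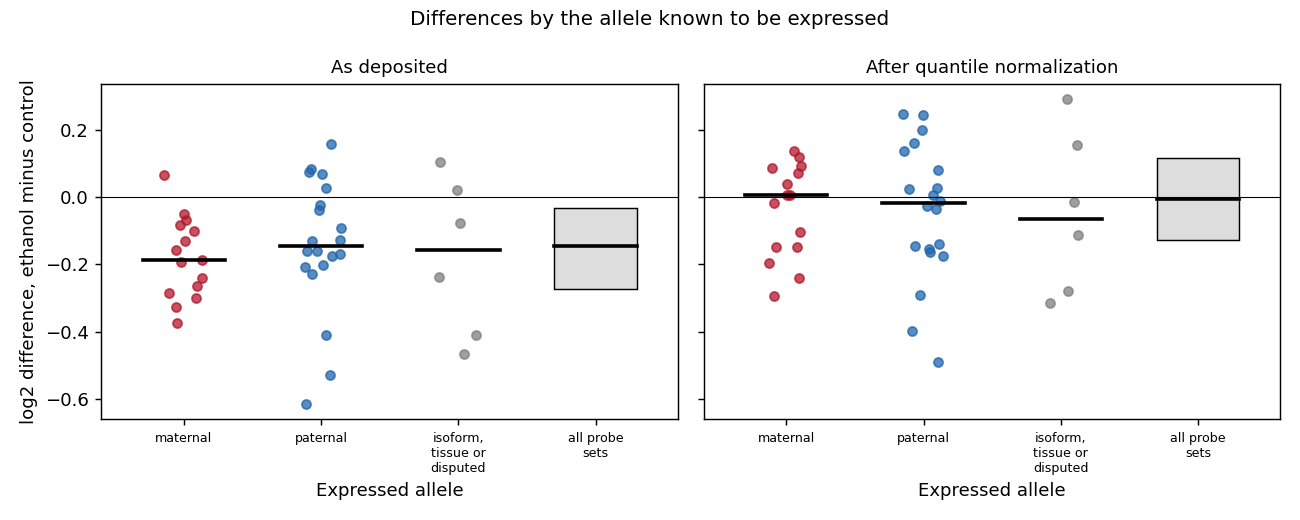
Log2 differences (ethanol minus control) of 15 maternally expressed, 20 paternally expressed and 6 other imprinted genes, as deposited and after quantile normalization, with the median of each as a line. The box is the middle of all probe sets, from the lower to the upper quartile, and the medians of -0.19 and -0.15 as deposited lie near 0 after normalization.

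Over the 41 genes the differences ran from -0.61 to 0.16 with a median of -0.16, against -0.146 over all probe sets. The middle of the genes, from the lower to the upper quartile, spanned -0.24 to -0.05, against -0.27 to -0.03 over all probe sets. Both ethanol pools lay below both control pools in 23 genes, or 56.1%, against 52.7% of all probe sets, and above them in none, against 7.25%. The difference was under 0 in 33 genes as deposited, where 80.2% of all probe sets were, and in 22 after normalization, where 51.0% were. After normalization both ethanol pools lay below both control pools in 15 genes, or 36.6%, against 24.9% of all probe sets, while 4 genes, Atp10a, Mkrn3, Sgce and Calcr, lay above, against 24.0% of all probe sets. As deposited, of 12 genes with signals under the median of every array, Phlda2 alone was past the limits, where 17.9% of all probe sets were lower. After normalization Phlda2 was not past them. The share among all probe sets this dim was not computed.

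**Figure D4:**
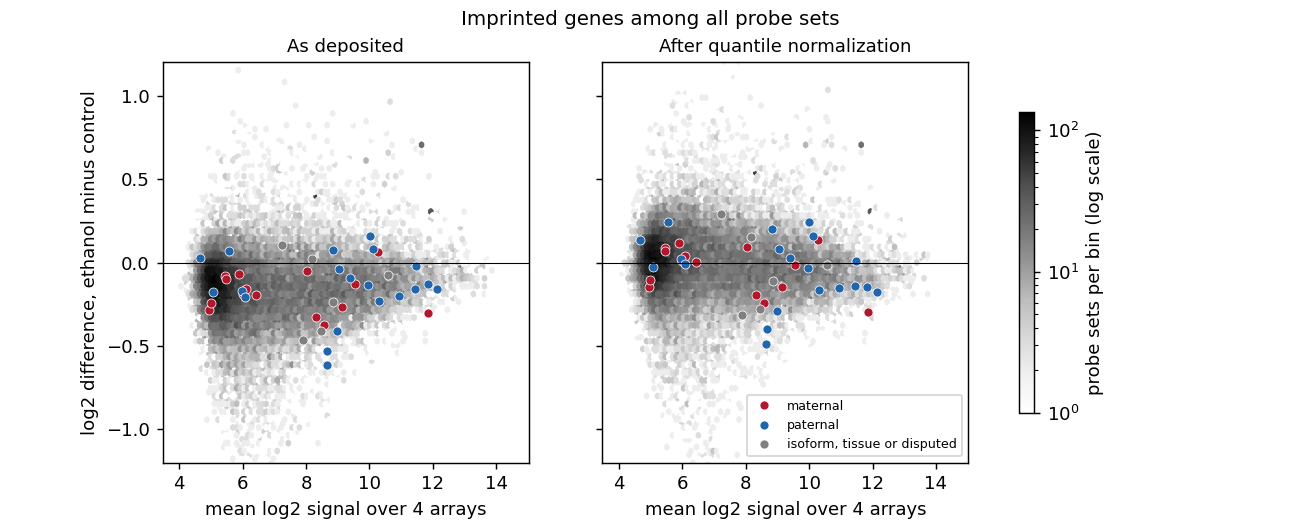
Mean log2 signal over the 4 arrays and log2 difference (ethanol minus control) of the imprinted genes, coloured by expressed allele, over the density of all 35556 probe sets in grey. The vertical axis is limited to 1.2 in either direction, beyond which no imprinted gene lies. As deposited the cloud lies below 0 with a median of -0.146, and after quantile normalization it is centred.

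Of 32 further imprinted genes listed for comparison, 28 were measured and 2 were lower past the limits as deposited, which is 7.14% against 17.9% of all probe sets. Whether these genes are imprinted in brain was not examined. Ddc, the decarboxylase of dopamine and serotonin synthesis, had 7.44 and 7.49 in ethanol pools and 7.79 and 7.87 in control pools, a difference of -0.37 that was -0.19 and no longer past the limits after normalization. The potassium channel gene Kcnq1 was at -0.30 and -0.13. After normalization Th, the rate-limiting enzyme of catecholamine synthesis, was higher at 0.61 and the retrogene Mcts2 at 0.41, against 5.71% of all probe sets higher. Gatm, an enzyme of creatine synthesis, was lower at -0.29, against 5.87% of all probe sets lower. As deposited Th was at 0.47, Mcts2 at 0.23 and Gatm at -0.27, none of them past the limits. Grouped by the treatment entry, as deposited, Th at -0.36, Gatm at 0.12 and Kcnq1 at 0.11 changed sign. Mcts2 at 0.12 and Ddc at -0.06 did not. The median of these genes was -0.13 as deposited and 0.02 after normalization.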

How the data were processed

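Whole-brain RNA was hybridized to 4 Affymetrix Mouse Gene 1.0 ST arrays, which were scanned with Command Console. In Partek Genomics Suite (version 6.6 in the submitters' processing notes, an earlier one in the methods) the authors combined probes into one value per probe set by RMA adjusted for GC content with quantile normalization, and deposited log2 signals. The deposited medians of the arrays are not equal, so each result was computed on the deposited values and after a further quantile normalization. The number of arrays, and not a count of molecules, limits the precision.

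Titles set the groups. In R 4.3.3, limma 3.58.1 was run on all 35556 probe sets, with 2 residual and 2.57 prior degrees of freedom and no covariate, and Benjamini-Hochberg adjustment covered every probe set. The limits were 1.2-fold and an unadjusted p of 0.05, as in the methods, with no filter on dim probe sets. Gene symbols came from the platform annotation, and all 41 measured members matched the RefSeq table by Entrez ID. The expressed allele and cluster of each gene are background knowledge, and the arrays do not separate alleles. Probe positions were not used here, so overlapping transcripts were not separated. Members and lists were chosen with earlier results of these data known. Every member is accounted for, and signals on all arrays are given for those past the limits in either form, for those whose groups stay apart in both forms at 1.2-fold or more, for reciprocally imprinted pairs and for the highest and lowest of each cluster. The alternatives were other scalings, the grouping by the treatment entry, single arrays left out, control 3 with ethanol 2 alone, whose labels do not conflict, a mean log2 of at least 5, an intensity trend, the methods' test, both possible replicate blocks, 1 probe set a gene and a 1.5-fold limit. Quantile normalization combined with the treatment entry or with an array left out was added after the data were seen.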

Additional observations from a re-analysis of the deposited data

How the results depend on the processing

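The count of 8 genes lower past the limits was 5 after quantile normalization, 0 with each array centred on its median, 0 with the arrays grouped by the treatment entry, 2 in the methods' test (8.11% of all probe sets) and 1 at a 1.5-fold limit (3.63%). The replicate block that pairs control 1 with ethanol 4 gave 5 (16.7% of all probe sets). The one that pairs control 1 with ethanol 2 gave 7 (17.0%). Normalized and grouped by the treatment entry it was 0 (1.36%). The count of 0 genes higher was 1 after normalization (5.71%) and 2 after centring. Centring moves the median of all probe sets to 0.0658, and 3.91% of all probe sets were then lower and 9.09% higher. With 1 array left out, in the order control 1, ethanol 2, control 3 and ethanol 4, a group holds 1 pool. Differences are therefore given here for the 5 genes lower in both forms. Airn ran from -0.84 to -0.39 as deposited and from -0.69 to -0.29 after normalization. Zdbf2 ran from -0.67 to -0.39 and from -0.53 to -0.26, and Begain from -0.56 to -0.37 and from -0.37 to -0.26. Blcap ran from -0.52 to -0.30 and from -0.35 to -0.21, and Meg3 from -0.39 to -0.21 and from -0.35 to -0.24. The median of the genes was -0.014 after normalization, 0.053 after centring, 0.0070 by the treatment entry and -0.0064 by it after normalization, and with an array left out it ran from -0.18 to -0.12, and after normalization, with the arrays left out in the same order, it was -0.0219, -0.0209, -0.0312 and -0.0305. For the maternal genes these were 0.0063, 0.025, 0.028 and 0.0085, with -0.23 to -0.15 and -0.0704, -0.0171, -0.0208 and -0.0125. For the paternal genes they were -0.018, 0.067, -0.027 and -0.053, with -0.16 to -0.091 and -0.0141, -0.0250, -0.0673 and -0.0362. By the treatment entry 6 of the 8 genes turned, Airn to 0.34, Phlda2 to 0.10, Ppp1r9a to 0.038, Blcap to 0.12, Meg3 to 0.099 and Begain to 0.079, and after normalization too to 0.32, 0.096, 0.022, 0.087, 0.050 and 0.050. A p that misses the limit in these settings does not show that values did not differ, and the cause of these shifts was not tested. Counting also genes not past the limits, 11 of the 41 differences changed sign under normalization, 20 under centring and 24 by the treatment entry. No gene passed an adjusted p of 0.05 in limma or in the methods' test under any of these settings.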

Other observations

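Of 16 listed factors that lay down or keep imprints, all 16 were measured, 2 (12.5%) were lower past the limits as deposited, against 17.9% of all probe sets, and 14 were neither. Mbd3, a subunit of a chromatin repressor complex, had log2 signals of 8.85 and 8.88 on ethanol 2 and ethanol 4, against 9.46 and 9.38 on control 1 and control 3. The difference was -0.56 (limma, adjusted p = 0.156) and -0.44 after quantile normalization, past the limits in both forms. Grouped by the treatment entry the difference of Mbd3 was 0.03 as deposited. It was the 1 factor lower after normalization, against 5.87% of all probe sets. Dnmt3a, the DNA methyltransferase that sets new methylation, had 8.10 and 8.28 in ethanol pools and 8.51 and 8.61 in control pools, at -0.37 as deposited and -0.24 after normalization, which was no longer past the limits. By the treatment entry Dnmt3a was at -0.14 as deposited. Zfp57 and Trim28, which hold imprints at their control regions, were at -0.10 and -0.21 as deposited and at 0.03 and -0.08 after normalization. The median of the 16 was -0.13 as deposited and -0.0068 after normalization, close to those of all probe sets.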
